A study of Homo sapiens with 9 samples.

Results

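VIM, NES, GFAP, SYNM, INA, NEFL, NEFM and NEFH encode the cytoplasmic intermediate filament proteins of glial, neural progenitor and neuronal cells. All 8 were found by gene symbol among the 18364 genes measured in tumours that LN229 cells, an established human glioblastoma line, formed in mouse brains. Vimentin (VIM) and glial fibrillary acidic protein (GFAP) can each form filaments by themselves. Nestin (NES) and synemin (SYNM) need such a partner to be built into a filament. The neurofilament light, medium and heavy chains (NEFL, NEFM and NEFH) and alpha-internexin (INA) assemble together in axons. Vimentin is made by mesenchymal cells, immature glia and most glioma cells, nestin marks neural progenitors and many gliomas, and GFAP is the classical marker of astrocytes.

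Bulk RNA sequencing compared 6 tumours from LN229 cells labelled TAZ-4SA with 3 tumours from LN229 cells labelled EV, which is taken here to be the empty vector control. TAZ is the Hippo pathway coactivator encoded by WWTR1, and the name 4SA is used for a form in which serines targeted by the pathway's kinases are changed to alanine. All 9 tumours came from cells injected into the brains of nude mice, which lack T cells but keep other immune cells, and were collected at the terminal stage. The age of the mice, and whether each line was a clone or a pool, are not stated in the labels. In bulk tumour RNA, fewer cells of a type and less RNA per cell cannot be told apart, and whether reads of the host mouse were removed is not stated.

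The TAZ-4SA libraries held 3144861 to 31468135 reads on the genes of the table and the EV libraries 17314672 to 21576264. Genes at 0 reads numbered 2990 to 7365 per TAZ-4SA library and 505 to 622 per EV library. TAZ-4SA tumours 5 and 6 had the fewest reads, 3299325 and 3144861, and tumours 2, 3 and 4 had the most genes at 0. WWTR1 itself was at 218 to 449 CPM (a gene's reads relative to the scaled library size) in TAZ-4SA and 116 to 123 CPM in EV (log2 fold change 1.44, limma adjusted p = 0.00242). The lines are labelled as glioblastoma, yet 10 markers of Schwann cells and neural crest summed to 4257 to 4642 CPM in EV and 211 to 551 CPM in TAZ-4SA, and 7 of the 10 fell. Astrocyte markers, 12 in number, summed to 573 to 794 CPM in EV and 245 to 511 CPM in TAZ-4SA. Among them AQP4 and GJB6 were at most 0.387 CPM in every tumour except TAZ-4SA tumour 5, which had 5.32 and 7.28 CPM. SLC1A3, GJA1, ALDOC and GLUL had reads in all tumours, at group means of 18.7 to 260 CPM. The 2 astrocyte markers that fell were S100B, which is also in the Schwann cell list, and FGFR3. S100B was at 208 ± 43.4 CPM in EV (SD, n = 3) and 2.95 ± 4.43 CPM in TAZ-4SA (SD, n = 6). FGFR3 was at 36.8 ± 30.1 CPM in EV (SD, n = 3) and 1.52 ± 2.90 CPM in TAZ-4SA (SD, n = 6). GJA1 rose by 1.24 on the log2 scale (limma adjusted p = 0.0485). FGFR3 and GJA1 did not stay under an adjusted p of 0.05 when any EV tumour was left out.

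NES and SYNM were lower in every TAZ-4SA tumour than in any EV tumour, VIM was the most abundant of the 8 genes in all 9 tumours, and GFAP and the neuronal filament genes varied widely among the TAZ-4SA tumours. A gene was called changed at an adjusted p under 0.05 in limma, a linear model across all genes, and tested only where its CPM averaged 1 or more across all tumours. By that rule 7 of the 8 genes were tested (NEFH was too low), 2 fell and 0 rose. At an unadjusted p under 0.05, 3 were lower and 0 higher. Limma-voom on whole reads called 3 lower and 0 or 1 higher, depending on its library sizes. Across all 15578 genes tested, 13.3% were called lower and 9.02% higher, so 2 of 7 is not by itself particular to these genes. Non-overlap of the groups with TAZ-4SA lower was found for the same 2 genes and for 21.3% of all genes, with 10.8% in the other direction. The median log2 fold change was -1.91 over the 7 members and -0.85 over all genes tested. The latter shift became -0.05 after quantile normalization, which forces the same distribution of values on every tumour, and 2042 genes were then higher and 1626 lower, against 1405 and 2079 without it.

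The promoters of the 2 genes that fell are shown beside that of VIM, which was high in all tumours. Each window runs from 250 bases before to 50 bases after the RefSeq start in GRCh38.p14: chr1:156677358-156677657 on the minus strand for NES, chr15:99104830-99105129 on the plus strand for SYNM and chr10:17227991-17228290 on the plus strand for VIM. Capitals mark GC boxes (GGGCGG, or its reverse complement), the site read by SP1-type factors, and a core motif of SOX factors (ACAANG).
NES: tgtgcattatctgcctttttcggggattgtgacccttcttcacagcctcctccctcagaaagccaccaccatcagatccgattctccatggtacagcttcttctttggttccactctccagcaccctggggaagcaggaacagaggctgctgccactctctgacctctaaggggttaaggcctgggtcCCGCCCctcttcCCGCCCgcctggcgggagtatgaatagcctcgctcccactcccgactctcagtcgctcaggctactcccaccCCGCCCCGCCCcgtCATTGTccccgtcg
SYNM: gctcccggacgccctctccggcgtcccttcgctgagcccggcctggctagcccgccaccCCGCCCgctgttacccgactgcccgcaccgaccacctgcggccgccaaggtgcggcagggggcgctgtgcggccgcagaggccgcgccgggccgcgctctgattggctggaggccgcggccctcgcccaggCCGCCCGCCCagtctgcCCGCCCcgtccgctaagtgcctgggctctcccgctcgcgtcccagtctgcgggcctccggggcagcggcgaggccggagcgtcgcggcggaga
VIM: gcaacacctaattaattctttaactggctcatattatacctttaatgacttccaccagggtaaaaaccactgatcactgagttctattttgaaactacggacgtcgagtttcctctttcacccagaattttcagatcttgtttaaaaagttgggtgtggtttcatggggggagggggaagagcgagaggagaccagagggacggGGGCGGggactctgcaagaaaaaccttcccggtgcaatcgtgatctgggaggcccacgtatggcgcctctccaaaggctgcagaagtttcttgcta
NES held 4 GC boxes, at 62 and 50 bases before the start and beginning at bases 23 and 28 after it, and a SOX core at base 37. The last 2 of these GC boxes overlap. SYNM held 4 GC boxes, at 191, 60, 56 and 43 bases before the start, of which the second and the third overlap. VIM held 1, at 46 bases before the start. GC content was 60.3% for NES, 79.0% for SYNM and 48.0% for VIM. GC boxes occur in 45.0% of all 35116 RefSeq windows of this length and the SOX core in 35.5%, on either strand. The core of the TEAD factors that TAZ binds (GGAATG, in 14.03% of windows) and the AP-1 site (TGANTCA, in 7.71%) had no match in these 3 windows, which says only that those letters are not there. The VIM start in RefSeq lies 1037 bases upstream of the first exon of VIM in GENCODE 29, so this window is that of the RefSeq model. It does not reach the GENCODE start, whose promoter was not examined and may differ from it.

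NES encodes nestin, a large filament protein of dividing neural progenitors (chromosome 1, 156668763 to 156677407, GRCh38.p14). NES was at 1322, 1360 and 1290 CPM in EV tumours 1 to 3. In the 6 TAZ-4SA tumours it ranged from 99.9 to 258 CPM with a median of 148 CPM. The lowest EV tumour was 5.01 times the highest TAZ-4SA tumour, which was tumour 5. NES fell by 3.15 on the log2 scale (SE 0.31, 95% interval -3.83 to -2.46, limma adjusted p = 3.943e-05). The mean CPM was 8.36 times as high in EV (1324 ± 35.1, SD, n = 3) as in TAZ-4SA (158 ± 60.5, SD, n = 6). On the log2 scale the SD among tumours was 0.04 in EV and 0.53 in TAZ-4SA. Other neural progenitor markers, 9 in the table, summed to 785 to 819 CPM in EV and 140 to 296 CPM in TAZ-4SA, with 1 gene called higher and 1 lower and a median log2 fold change of -3.42. FABP7 and NOTCH1 had the largest EV means of these, 320 ± 47.4 and 299 ± 52.1 CPM (SD, n = 3). In TAZ-4SA they were at 8.58 ± 7.47 and 58.2 ± 56.5 CPM (SD, n = 6), and NOTCH1 was not called. MSI2, PAX6 and CD24 had positive log2 fold changes (0.23, 0.47 and 3.38) and the other markers negative ones. At an unadjusted p under 0.05, 3 of the 9 markers were lower, and limma-voom called 6 lower. The higher call was lost when any EV tumour was left out and the lower call without EV tumour 1 or 2, and 2 or 3 were lower without TAZ-4SA tumour 3, 4 or 6. Their part in the NES result was not tested.

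SYNM encodes synemin, which links vimentin or desmin filaments to actin-binding proteins at adhesion sites (chromosome 15, 99105080 to 99141767). SYNM was at 158, 165 and 134 CPM in the EV tumours. In TAZ-4SA it ranged from 11.8 CPM in tumour 3 to 75.6 CPM in tumour 4, with a median of 29.4 CPM. The groups did not overlap, and the lowest EV tumour was 1.78 times the highest TAZ-4SA tumour. SYNM fell by 2.33 on the log2 scale (SE 0.49, 95% interval -3.38 to -1.27, limma adjusted p = 0.00513). Mean CPM was 4.36 times as high in EV (152 ± 15.98, SD, n = 3) as in TAZ-4SA (34.9 ± 21.6, SD, n = 6). Both NES and SYNM stayed called lower when any single tumour was left out and under each scaling tried.

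VIM encodes vimentin (chromosome 10, 17228241 to 17237593). VIM was at 1751, 1616 and 2092 CPM in EV tumours 1 to 3. In TAZ-4SA the lowest was 1480 CPM in tumour 5, the median 2292 CPM and the highest 2910 CPM in tumour 4. Of the 6 TAZ-4SA tumours, 4 were above all EV tumours and 1 was below them. The log2 fold change was 0.28 (SE 0.23, 95% interval -0.22 to 0.79), and the limma adjusted p was 0.393, so VIM was not called changed. With limma-voom on whole reads, VIM was called higher when library totals were used unscaled (log2 fold change 0.42, limma adjusted p = 0.0407), and was not called with library sizes scaled as in the deposited table. VIM-AS1, an antisense RNA that overlaps VIM and cannot be separated from it in an unstranded library, had at most 0.558% as many reads as VIM in any tumour. Vimentin is also made by host-type stromal cells. Markers of pericytes, fibroblasts and muscle, 10 in the table, summed to 2545 to 6220 CPM in TAZ-4SA and 1935 to 2337 CPM in EV, with 3 called higher and 1 lower. COL1A1, a collagen chain, carried that sum, at 3206 ± 1264 CPM in TAZ-4SA (SD, n = 6) and 113 ± 42.5 CPM in EV (SD, n = 3). The other 9 summed to 348 to 650 CPM in TAZ-4SA and 1793 to 2273 CPM in EV. CSPG4, a proteoglycan, carried that difference, falling from 1703 ± 333 CPM in EV (SD, n = 3) to 91.1 ± 58.2 CPM in TAZ-4SA (SD, n = 6). By group means the remaining markers together did not show that fall. LUM and CNN1 among them were called higher, at means of 110 and 35.5 CPM in TAZ-4SA and 14.8 and 3.41 CPM in EV. The part of stromal cells in the VIM level was not tested. Endothelial markers, 7 in the table, summed to 0.101 to 37.8 CPM in TAZ-4SA and 39.2 to 44.7 CPM in EV, with 1 of 3 tested called lower (0 when any EV tumour was left out, 2 without TAZ-4SA tumour 3 and 3 without tumour 5). Myeloid markers, 8 in the table, summed to 65.7 to 178 CPM in TAZ-4SA and 29.7 to 41.3 CPM in EV, with 1 of 5 tested called higher. That gene was CD68, which carried most of the difference, at 88.2 ± 38.2 CPM in TAZ-4SA (SD, n = 6) and 16.4 ± 5.51 CPM in EV (SD, n = 3). PTPRC, TYROBP, CD14, ITGAM and CSF1R had group means of at most 5.67 CPM. AIF1, CX3CR1, C1QA and C1QB were absent from the deposited values, so whether they had reads is not known. Whether the tumours differed in myeloid cells was not tested. P2RY12, a microglial receptor, was near 0 throughout, with 0 reads in TAZ-4SA and 0.0581 to 0.193 CPM in EV.

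**Figure D1:**
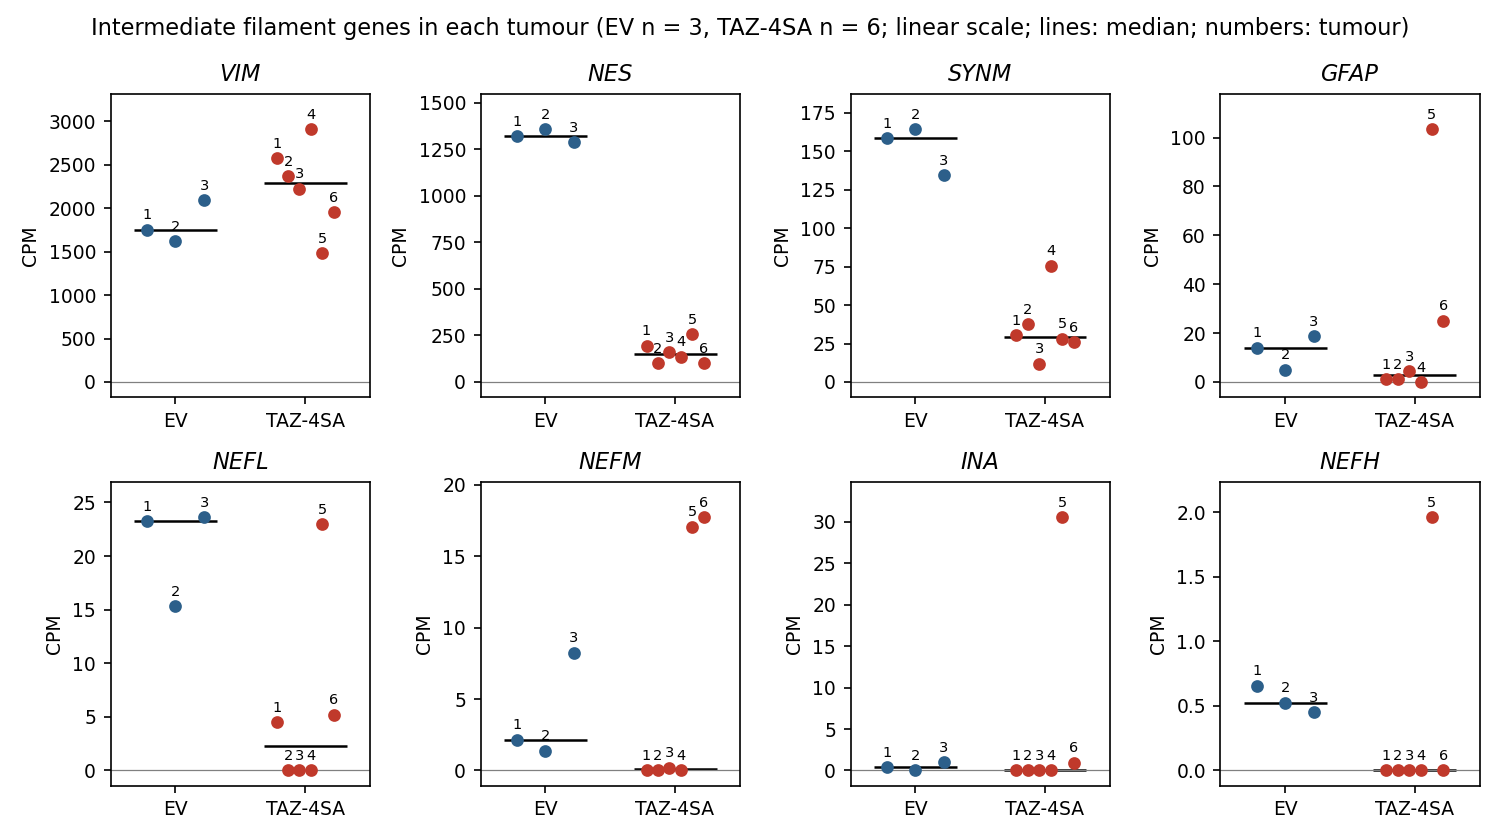
CPM of the 8 intermediate filament genes on linear axes, with 1 point per tumour, numbered as in the text, for EV (n = 3) and TAZ-4SA (n = 6); horizontal lines are group medians. NES and SYNM show no overlap between the groups, VIM overlaps, and TAZ-4SA tumour 5 is the highest tumour of that group for GFAP, NEFL, INA and NEFH.

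GFAP encodes the main filament protein of mature astrocytes (chromosome 17, 44903159 to 44915500). In the EV tumours it was at 14.1, 5.00 and 18.7 CPM. In TAZ-4SA tumours 1 to 4 it was at 1.12, 1.21, 4.49 and 0 CPM, and in tumours 5 and 6 at 104 and 25.1 CPM. Thus 4 TAZ-4SA tumours were below all EV tumours and 2 were above them, and tumours 5 and 6 held 94.96% of the group's CPM. The log2 fold change was -1.55 (SE 1.84, 95% interval -5.55 to 2.45, limma adjusted p = 0.560), while the mean CPM was 1.79 times as high in TAZ-4SA (22.6 ± 40.8, SD, n = 6) as in EV (12.6 ± 6.97, SD, n = 3), so the log2 mean and the linear mean differ in sign. CCDC103, which overlaps GFAP on the opposite strand, had 0 reads in all TAZ-4SA tumours and 3.36 ± 1.80 CPM (SD, n = 3) in EV.

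NEFL encodes the light chain on which neurofilaments are built. NEFL was at 23.2, 15.3 and 23.6 CPM in EV. In TAZ-4SA tumours 2, 3 and 4 it had 0 reads, in tumours 1 and 6 it was at 4.49 and 5.20 CPM, and in tumour 5 it was at 22.9 CPM, within the EV range. Thus 5 of 6 TAZ-4SA tumours were below all EV tumours. The log2 fold change was -4.22 (SE 1.83, 95% interval -8.19 to -0.25), with an unadjusted p of 0.0389 and a limma adjusted p of 0.115, so NEFL was not called. It was called lower with array weights (limma adjusted p = 0.0122) and by limma-voom (limma adjusted p = 0.0151). Among the 4879 genes within 2-fold of NEFL's mean level in EV, 12.01% had 0 reads in 3 or more TAZ-4SA tumours.

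NEFM, the medium chain, was at 2.15, 1.40 and 8.25 CPM in EV. It had 0 reads in TAZ-4SA tumours 1, 2 and 4, was at 0.184 CPM in tumour 3, and reached 17.1 and 17.7 CPM in tumours 5 and 6. Tumours 5 and 6 were therefore above all EV tumours and the other 4 below them (log2 fold change -1.91, limma adjusted p = 0.474). Among genes within 2-fold of NEFM's mean level in EV, 54.2% had 0 reads in 3 or more TAZ-4SA tumours. INA, which co-assembles with the neurofilament chains, was at 0.422, 0 and 0.967 CPM in EV and at 30.5 CPM in TAZ-4SA tumour 5. The other TAZ-4SA tumours had at most 0.917 CPM of INA (log2 fold change 0.22, limma adjusted p = 0.935). NEFH, the heavy chain, had 7 reads in tumour 5 (1.96 CPM) and 0 in the other TAZ-4SA tumours, against 30 reads over the 3 EV tumours (0.656, 0.523 and 0.451 CPM).

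Leaving out TAZ-4SA tumours 5 and 6, the 2 shallowest libraries, changed these results. Without them NEFL and NEFM were both called lower, with log2 fold changes of -5.89 (limma adjusted p = 0.0237) and -4.12 (limma adjusted p = 0.00572). Without tumour 5 alone NEFL was called lower (log2 fold change -5.10, limma adjusted p = 0.0455). GFAP was at -3.43 without both and still not called (limma adjusted p = 0.105). Leaving out tumours 2, 3 and 4 instead gave 0.42 for GFAP and 0.19 for NEFM, on the other side of 0. INA passed the filter on low values only through tumour 5, which held 109 of its 113 TAZ-4SA reads, and its mean over the other 8 tumours was 0.441 CPM, so its fits without tumour 5 describe a gene below the filter. INA turned to -0.96 without tumour 5, -1.51 without tumours 5 and 6 and -0.60 without EV tumour 2. Quantile normalization turned NEFM to 1.17. NES and SYNM were lower under all of these settings.

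**Figure D2:**
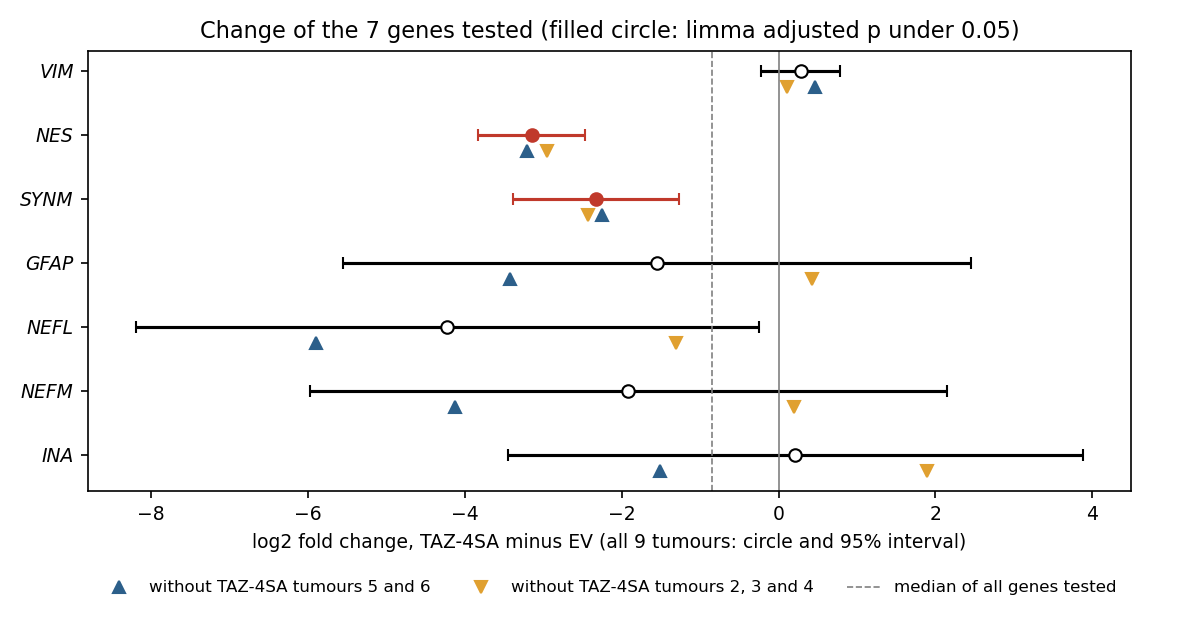
Log2 fold change of TAZ-4SA minus EV for the 7 genes tested, with circles and 95% intervals from all 9 tumours, filled where the limma adjusted p was under 0.05, and triangles for the fits without TAZ-4SA tumours 5 and 6 or without tumours 2, 3 and 4; the dashed line is the median of all genes tested, -0.85. NES and SYNM lie left of that line under all 3 fits, and the triangles of GFAP, NEFM and INA fall on both sides of 0.

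Neuron markers were also highest in these 2 tumours. A list of 17 neuron markers that holds none of the 8 genes summed to 1495 CPM in TAZ-4SA tumour 5 and 1908 CPM in tumour 6, against 276 to 529 CPM in tumours 1 to 4 and 497 to 661 CPM in EV. At 0 reads were 1 of the 17 in tumour 5, 0 in tumour 6 and 2 to 8 in tumours 1 to 4. Among them SNAP25, a protein of synaptic vesicle fusion, was at 343 and 882 CPM in tumours 5 and 6 and at 22.5 to 109 CPM in tumours 1 to 4. Of the neuron markers tested, 16 in number, 1 was called higher and 1 lower. The filament genes did not follow these sums alike. Tumour 6 had the highest sum only through SNAP25, without which tumour 5 would be highest. In tumour 6 NEFM was at 17.7 CPM, NEFL at 5.20, INA at 0.917 (3 reads) and NEFH at 0. The 4 together lay inside the EV range of 17.2 to 33.3 CPM. The astrocyte markers, none of them GFAP, summed to 511 CPM in tumour 5, the highest of the group, and 321 CPM in tumour 6, with 1 of 10 tested called higher and 2 lower. The lower neuron call was lost without TAZ-4SA tumour 1, 4 or 6 or when any EV tumour was left out, and 2 were higher without tumour 5. The higher astrocyte call was lost without TAZ-4SA tumour 2, 3 or 6 or when any EV tumour was left out, and the lower astrocyte count was 1 when any EV tumour was left out. The part of neuronal or astrocytic cells, or of depth, in the values of GFAP, NEFL, NEFM and INA was not tested.

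**Figure D3:**
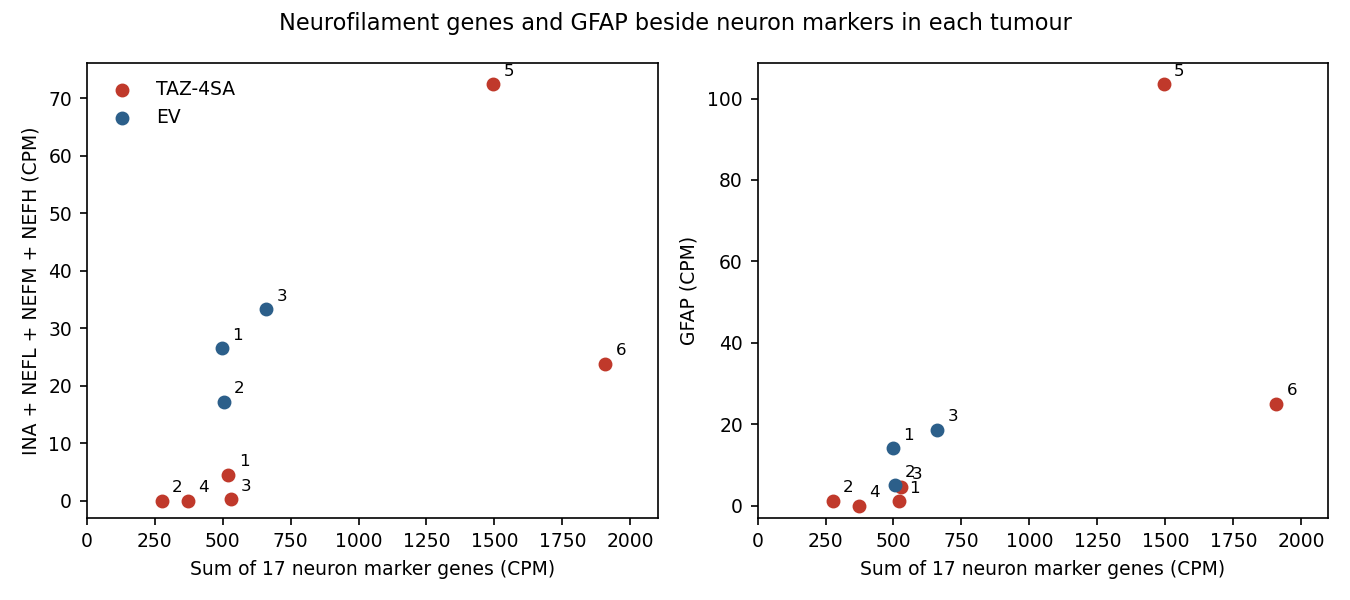
Summed CPM of INA, NEFL, NEFM and NEFH (left) and CPM of GFAP (right) against the summed CPM of 17 neuron markers, with 1 numbered point per tumour, TAZ-4SA in red and EV in blue. TAZ-4SA tumours 5 and 6 stand apart at 1495 and 1908 CPM of neuron markers, and tumour 5 has the highest value on both vertical axes.

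Levels of the different genes were compared per kilobase of the median coding transcript in GENCODE 29. VIM came first in every tumour, at 974 ± 131 CPM per kb in EV (SD, n = 3) and 1204 ± 266 CPM per kb in TAZ-4SA (SD, n = 6). In EV it was followed by NES (238 ± 6.31) and SYNM (24.7 ± 2.59), each without overlap with the next gene. NEFL (6.46 ± 1.46) and GFAP (6.00 ± 3.32) came next with overlapping ranges, then NEFM (1.39 ± 1.33), whose range overlapped that of GFAP, and last NEFH and INA, at 0.144 and 0.143 with overlapping ranges. In TAZ-4SA, NES was second by its mean (28.5 ± 10.9), and the ranges of all neighbours from NES down to NEFH overlapped. NES and SYNM kept their order there, at 18.0 to 46.4 and 1.92 to 12.3 CPM per kb.

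The 8 genes summed to similar levels in the groups, 1251 ± 128 CPM per kb in EV (SD, n = 3) and 1255 ± 240 in TAZ-4SA (SD, n = 6), and differed in make-up. VIM made up 75.6% to 80.4% of that sum in EV and 86.5% to 98.1% in TAZ-4SA. NES made up 16.7% to 21.4% in EV and 1.42% to 5.06% in TAZ-4SA, with no overlap. Per kilobase there was 4.10 ± 0.66 times as much VIM as NES in EV (SD, n = 3) and 48.1 ± 19.3 times as much in TAZ-4SA (SD, n = 6), with the lowest TAZ-4SA tumour at 17.1. The other 5 genes together reached 7.92% in TAZ-4SA tumour 5 and at most 1.41% in EV.

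**Figure D4:**
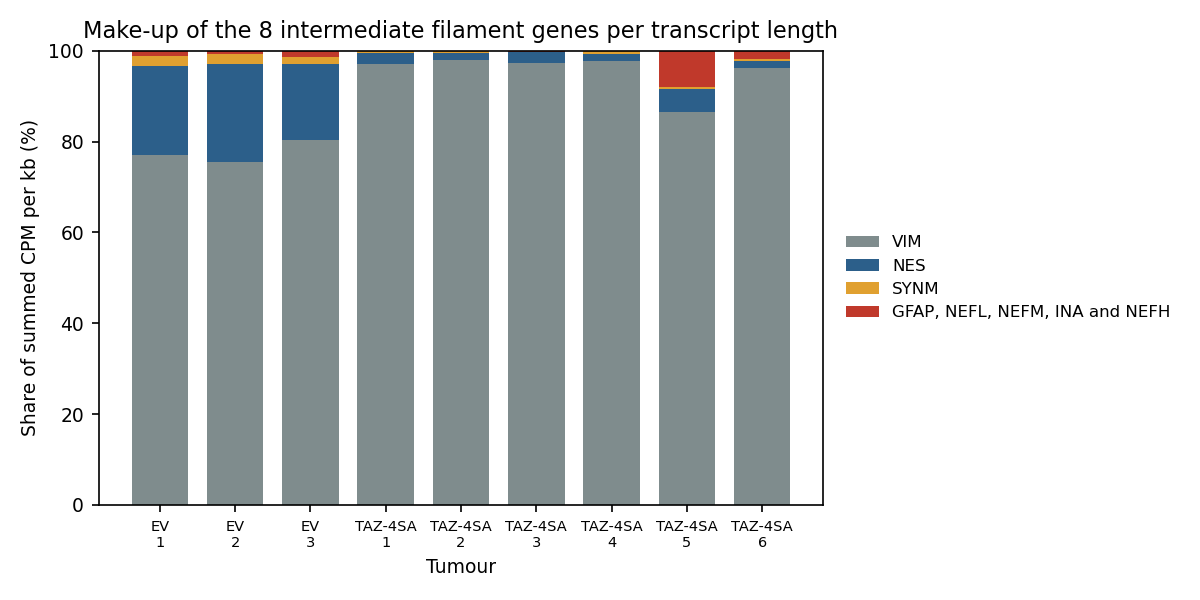
Share of the summed CPM per kb of the 8 genes held by VIM, NES, SYNM and the other 5 genes, stacked to 100% for each tumour. The NES share is 16.7% to 21.4% in EV and 1.42% to 5.06% in TAZ-4SA, and the other 5 genes are visible mainly in TAZ-4SA tumour 5, at 7.92%.

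Of 6 tested genes for other intermediate filament proteins, 1 fell and 0 rose. At an unadjusted p under 0.05, 2 were lower and 0 higher, and limma-voom called 3 lower and 0 higher. The gene that fell in the main test was PRPH, encoding peripherin of peripheral neurons. It had 3.65 ± 0.565 CPM (SD, n = 3) in EV and 0 reads in all 6 TAZ-4SA tumours, which at a floor of 3 reads per library is at least 8.71-fold lower (limma adjusted p = 0.00227). Of 3167 genes within 2-fold of PRPH's level in EV, 10.7% were also at 0 in all 6, and the call was lost after quantile normalization (limma adjusted p = 0.192). The nuclear lamin genes LMNA, LMNB1 and LMNB2 had log2 fold changes of -0.87, -0.82 and -0.65 and were not called. The counts became 1 higher without TAZ-4SA tumour 2 and 2 lower without tumour 5.

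Among 16 tested genes for filament linkers, chaperones and turnover, 2 rose and 2 fell. At an unadjusted p under 0.05, 5 were higher and 3 lower, and limma-voom called 6 higher and 3 lower. MACF1, a giant linker of actin and microtubules, was at 564 ± 162 CPM in TAZ-4SA (SD, n = 6) and 199 ± 10.7 CPM in EV (SD, n = 3), a log2 rise of 1.45 (limma adjusted p = 0.00366). SLMAP, a tail-anchored membrane protein, rose by 2.30 (limma adjusted p = 0.0160). PADI2, which turns arginines of vimentin and GFAP into citrulline, had 0 reads in all TAZ-4SA tumours and 6.62 ± 5.00 CPM in EV (SD, n = 3), at least 15.8-fold lower (limma adjusted p = 0.00170). Without EV tumour 2, at 12.3 CPM, the bound was 8.99-fold. Of 3737 genes within 2-fold of its EV level, 4.23% were at 0 in all 6, and PADI2 lost its call after quantile normalization (limma adjusted p = 0.0786). NUDC, a dynein-linked chaperone, fell by 1.06 on the log2 scale (limma adjusted p = 0.0336). SLMAP lost its call without EV tumour 1 (limma adjusted p = 0.0697) or 2 (0.0516). NUDC lost its call without TAZ-4SA tumour 6 (limma adjusted p = 0.0551) or any EV tumour (0.0938 to 0.148). The count that rose was 4 without TAZ-4SA tumour 2 or 5.

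Of 23 genes for kinases and phosphatases that act on intermediate filaments, 6 rose and 0 fell, against 3 lower at an unadjusted p under 0.05 and 6 lower by limma-voom. ROCK1 and ROCK2, kinases that phosphorylate vimentin and GFAP, had 113 ± 54.2 and 107 ± 35.2 CPM in TAZ-4SA (SD, n = 6) and 12.6 ± 0.592 and 22.7 ± 2.92 CPM in EV (SD, n = 3). ROCK1 rose by 2.98 (limma adjusted p = 0.000951) and ROCK2 by 2.18 (limma adjusted p = 0.00106) on the log2 scale. PRKCE, a protein kinase C that phosphorylates vimentin, rose by 1.90 (limma adjusted p = 0.00659). PAK2, a kinase activated by Rac and Cdc42, rose by 1.26 (limma adjusted p = 0.0166) and lost its call without EV tumour 1 (0.0555) or 3 (0.109). The count that rose was 3 without EV tumour 1 or 3, and the count that fell was 1 without TAZ-4SA tumour 3 and 2 without tumour 5.

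Of 36 tested transcription factors linked to these genes, 11 rose and 3 fell, with 7 lower at an unadjusted p under 0.05 and 8 lower by limma-voom. SOX10, the factor of neural crest and myelinating glia, was at 1698 ± 187 CPM in EV (SD, n = 3) and 45.6 ± 20.3 CPM in TAZ-4SA (SD, n = 6), a log2 fall of 5.33 (limma adjusted p = 2.333e-06). SNAI2, a repressor active in mesenchymal transition, was at 174 ± 39.4 CPM in TAZ-4SA (SD, n = 6) and 13.6 ± 2.59 CPM in EV (SD, n = 3), a log2 rise of 3.65 (limma adjusted p = 1.223e-05). The AP-1 subunits FOSL2 and FOSL1 rose by 3.38 and 2.98 (limma adjusted p = 0.000409 and 0.00336). FOSL1 rose by 2.57 to 3.68 when 1 tumour at a time was left out.

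Some further factors of that list were picked for their known role after their values were seen. SOX2, which acts at NES in neural progenitors, had a log2 fold change of -3.63 and NFIA, which acts at GFAP in astrocytes, of -3.33, and neither was called (limma adjusted p = 0.169 and 0.150). Among the other SOX and NFI factors of the list, SOX9, NFIB and NFIC had positive values. NFIC was at 0.68 (limma adjusted p = 0.0480). SOX10, SOX11 and NFIX had negative ones (log2 fold change -5.33, -0.36 and -0.58), of which SOX11 and NFIX were not called. SOX9 rose by 3.18 on the log2 scale (limma adjusted p = 0.0223) but was not called when any EV tumour was left out (0.0507 to 0.0969), and NFIB was at 1.04 and not called (limma adjusted p = 0.0700). REST, a repressor of neuronal genes, rose by 2.25 (limma adjusted p = 0.0179) but not without EV tumour 1 (0.0738) or 2 (0.0855). The counts for the factor list fell to 6, 5 and 7 higher and 1 lower each when EV tumour 1, 2 or 3 was left out.

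For NES, SYNM, VIM, NEFL and NEFM, the nearest profiles were sought among 11845 named genes averaging 5 CPM or more, by the root mean square difference of centred log2 values over the 9 tumours. NES lay nearest to CDK10, PLAT and OBSL1, with differences of 0.31, 0.33 and 0.33. SYNM lay nearest to PPIB, PRKCD and CNPY2 (0.32, 0.40 and 0.40), and VIM to RARS1, CCT6A and GOLGA7 (0.14, 0.15 and 0.15). NEFL lay nearest to ARHGEF10L, PPP1R9A and TRMT44 (0.41, 0.48 and 0.48), and NEFM to NALCN, TAGLN3 and PPP2R2C (0.43, 0.54 and 0.60).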

How the data were processed

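RNA was extracted with TRIzol and sequenced from SMART-Seq mRNA HT and Nextera XT libraries, per the labels' protocols, a chemistry that does not mark the strand. HISAT2, edgeR and GRCh38 are named, without roles or versions, in the submitters' processing notes. How reads were counted, the annotation, and any removal of mouse reads: not given in the sources used here. Values deposited by the authors were log2 values, taken from their steps to be log2 CPM with a prior of 0.145 CPM. Less that prior, 100% of linear values under 5000 reads were whole reads within 0.1 read. CPM are printed with the prior removed.

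The main test was limma 3.58.1 in R 4.3.3, with robust empirical Bayes and a mean-variance trend, on the deposited log2 values of 15578 genes averaging 1 CPM or more over 9 tumours (prior included), adjusted by Benjamini-Hochberg. Fold changes are on a log2 scale that includes the prior, so those of low genes depend on it. With 2 CPM added in its place, NEFL was at -2.29, NEFM at -0.28, GFAP at -0.65 and INA at 0.49. The script was tested on simulated data. Labels do not tie tumours to animals, so p-values measure only the spread between these samples. No replicate pair agreed within sampling noise (lowest chi-square per degree of freedom 18.6). Intervals of fold changes are 95%, and floors of 3 reads cover counting error only.

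Members and the 11 gene lists were chosen with earlier results of these data known. Named from each list were up to 4 called genes with the smallest p, and for each member the 3 nearest profiles, of which those of GFAP and INA are not reported here. Alternatives changed the scaling, pseudocount, filter, weights, test and tumours used. Overlaps and transcript lengths came from GENCODE 29, positions and promoters from RefSeq.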

Additional observations from a re-analysis of the deposited data

Results flagged for a closer look

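For each gene named above and NEFH, 37 in all, the 6 TAZ-4SA CPM values were searched for a tumour whose gap to its nearest neighbour exceeded the 95% critical value of Dixon's ratio of gap to range. About 1 in 20 groups of normally distributed values passes by chance. Linear CPM of low genes, with many tumours at 0, need not follow that distribution, so the rate need not hold here. Of the genes searched 6 passed, each with TAZ-4SA tumour 5 as the highest. They share the same tumours and are not independent, so the 6 have no chance value of their own. GFAP was at 103.6 CPM there, with the next tumour at 25.06. INA was at 30.51 CPM (next 0.917), NEFL at 22.95 CPM (next 5.20) and NEFH at 1.959 CPM (next 0). FGFR3, a receptor used as an astrocyte marker, was at 7.277 CPM (next 1.72), and ERG, an endothelial factor, at 0.8396 CPM (next 0). NEFH and ERG had reads in no other TAZ-4SA tumour, and any such gene passes by construction. In this library, among the shallowest, 3 reads are worth 0.840 CPM. The CPM scale was chosen after the values were seen. On the log2 scale GFAP, NEFL and FGFR3 would not pass, with gaps of 0.215, 0.289 and 0.351 of the range, and INA would (0.628).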

How the results depend on the processing

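Leaving out 1 tumour at a time gave log2 fold changes of 0.20 to 0.40 for VIM, -3.30 to -3.03 for NES, -2.59 to -2.06 for SYNM, -2.51 to -0.61 for GFAP, -5.10 to -3.64 for NEFL, -2.80 to -1.20 for NEFM and -0.96 to 0.87 for INA. Genes called ranged from 799 to 1685 higher and 852 to 2688 lower, and members 2 to 3 lower and 0 higher throughout, against 1405, 2079, 2 and 0 with all tumours. Without TAZ-4SA tumours 5 and 6, INA was -1.51, NEFL -5.89, NEFM -4.12, and 4 members were lower. Without tumours 2, 3 and 4, GFAP was 0.42 and NEFM 0.19. Quantile normalization gave 1.17 for NEFM, with 2042 genes higher and 1626 lower. Array weights, whose fit stopped before convergence, gave -3.41 for NEFL (called lower), 2531 higher and 5630 lower. Without a filter 3384 genes were lower, and 967 at a mean of 10 CPM. Limma-voom gave -5.07 for NEFL (called lower), 2181 higher and 4745 lower. With unscaled library totals, added after seeing the data, it gave 0.42 for VIM (called higher), -4.99 for NEFL (called lower), 2261 higher, 4542 lower and 1 member higher. The cause was not tested. The planned edgeR and DESeq2 fits were not run, since the deposited unit is log2.

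With the replicate number as a block, INA was -1.47, NEFM -4.02 (called) and 604 genes were higher. Over the named genes of the lists, 581 refits kept the call and 54 lost it, 11 of them with the block. The numbers share only a number: same-numbered tumours correlated at 0.03, 0.00 and -0.05.

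NEFH was too low to test. A count of 3 reads is worth 0.108 to 0.917 CPM per TAZ-4SA library, so levels under that are not resolved.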
